A study of Mus musculus with 2 samples.

Results

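The genes of the mitochondrial genome were examined in hippocampal RNA of 1 *Cdh5-CreERT2;CDK5 f/f* library and 1 *CDK5 f/f* library. They are all rows that the deposited table places on chromosome MT, which gave 37 of 55573 rows: 13 protein-coding genes, 2 rRNA genes and 22 tRNA genes. The *Cdh5-CreERT2;CDK5 f/f* mouse sample (strain C57BL/6, both *Cdk5* alleles flanked by loxP) is labelled as treated with tamoxifen, which switches on a Cre recombinase driven by the promoter of the endothelial cadherin gene *Cdh5*. The *CDK5 f/f* sample (C57BL/6, the same floxed alleles, no Cre) is labelled untreated, so genotype and tamoxifen cannot be told apart. Cre acts in endothelial cells only, and hippocampal tissue consists mostly of other cells, so most of the RNA measured comes from cells that keep *Cdk5*. The labels give neither the age nor the number of mice behind a library. With a single library per genotype there is no replicate error and no test between genotypes. Each ratio carries an exact 95% interval, which reflects the error of counting and not the spread between mice.

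The mitochondrial genome is a small circle that encodes subunits of respiratory chain complexes I, III and IV and of the ATP synthase (complex V), together with the rRNAs and tRNAs that translate them inside the organelle. Both strands are transcribed as long precursors, and tRNAs between the other genes are cut out to release the mRNAs and rRNAs. Most of the mRNAs receive short poly(A) tails, which in some cases complete the stop codon. Neurons depend on the respiratory chain for much of their ATP, and mitochondrial transcripts are among the most abundant RNAs of brain tissue.

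The libraries hold 18900847 counts (*Cdh5-CreERT2;CDK5 f/f*) and 19451827 counts (*CDK5 f/f*). All 6 CA1 markers, all 5 CA3 markers and all 6 dentate granule cell markers looked up were detected in both libraries. *Cdk5*, the floxed gene, had 1257 counts in the *Cdh5-CreERT2;CDK5 f/f* library and 1261 in the *CDK5 f/f* library (ratio 1.03, interval 0.948 to 1.11), so that a loss limited to endothelial cells was not detectable in this tissue RNA. The samples also differ in ways that cannot be separated from genotype. Counts of *Xist*, which female cells make to silence an X chromosome, were 34 in the *Cdh5-CreERT2;CDK5 f/f* library and 15070 in the *CDK5 f/f* library. The Y-linked genes *Ddx3y* (771 and 0 counts) and *Eif2s3y* (679 and 2 counts) went the other way, so the libraries differ in the sex of the mice as well, and sex and genotype cannot be told apart. Markers of the choroid plexus, which makes cerebrospinal fluid, numbered 13 and summed to 6263 CPM (counts scaled to a common library total) in the *Cdh5-CreERT2;CDK5 f/f* library against 438 in the *CDK5 f/f* library.

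The table lists 28 of the 37 mitochondrial rows on the plus strand and 9 on the minus strand. The minus strand carries *mt-Nd6*, a complex I subunit gene, and 8 tRNA genes, and everything else lies on the plus strand. All 37 rows have the start, end and strand of GENCODE release M21 (GRCm38). The genes are packed with little or no space between them, and some overlap: *mt-Atp8* and *mt-Atp6*, the ATP synthase subunit genes, share 43 bases, *mt-Nd4l* and *mt-Nd4* share 7, and *mt-Nd5* and *mt-Nd6*, on opposite strands, share 14. The sources used here do not say whether counting used strand, so reads of overlapping and antisense transcripts cannot be assigned with certainty.

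The strands differ in base composition, as the transcript sequences of GENCODE M21 show. The sense sequence of *mt-Nd6* is 28.1% G and 5.97% C, whereas the 12 plus-strand mRNAs are 5.88% to 16.1% G and 22.1% to 30% C. Of the 13 mRNAs, 9 begin with ATG, and *mt-Nd1* begins with GTG, *mt-Nd2* with ATA, *mt-Nd3* with ATT and *mt-Nd5* with ATC. Their lengths leave 10 with a complete TAA or TAG at the end and 3 with a lone T that the poly(A) tail turns into a stop codon. The last 30 bases of these 3 genes and of *mt-Nd1* are shown to make this visible, with the incomplete or complete stop codon in capitals (plus strand, GENCODE M21, GRCm38).
mt-Co3 (MT, 9361 to 9390): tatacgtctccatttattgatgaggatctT
mt-Nd4 (MT, 11515 to 11544): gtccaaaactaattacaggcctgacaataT
mt-Cytb (MT, 15259 to 15288): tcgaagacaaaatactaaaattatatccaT
mt-Nd1 (MT, 3678 to 3707): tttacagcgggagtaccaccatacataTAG

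Mitochondrial rows took up 3.10% of all counts in the *Cdh5-CreERT2;CDK5 f/f* library (586079 counts, exact 95% interval 3.09% to 3.11%) and 3.43% in the *CDK5 f/f* library (667333 counts, 3.42% to 3.44%). Protein-coding genes made up most of this, with 513980 and 588834 counts, followed by the rRNA genes with 71466 and 77897 counts. The tRNA genes had 633 and 602 counts, all of them from 1 gene. Plus-strand genes held 99.2% of the mitochondrial counts in the *Cdh5-CreERT2;CDK5 f/f* library and 99.1% in the *CDK5 f/f* library. All these shares, and those below, are of deposited counts. In these, 6 neighbouring plus-strand mRNAs, described below, had only 580 and 615 counts together.

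*mt-Co1* (MT, 5328 to 6872), which encodes the catalytic subunit of cytochrome c oxidase (complex IV), had more counts than any other row of the table in both libraries, 228127 in the *Cdh5-CreERT2;CDK5 f/f* library and 254719 in the *CDK5 f/f* library. *mt-Cytb* (MT, 14145 to 15288), the cytochrome b subunit of complex III, came next with 91103 and 99389 counts. These 2 genes supplied 54.5% and 53.1% of the mitochondrial counts. On the scale of FPKM (counts scaled by exonic length and by the library total), the levels in the *Cdh5-CreERT2;CDK5 f/f* library ran from 7812 for *mt-Co1* and 4213 for *mt-Cytb* down to 3166 for *mt-Nd1*, 2138 for *mt-Nd2*, 1729 for *mt-Nd4*, 1328 for *mt-Nd5* and 421 for *mt-Nd6*. The *CDK5 f/f* library had the same order, with 8476, 4466, 4010, 2616, 1856, 1456 and 519 FPKM. The rRNA genes lay among these, with *mt-Rnr1* (12S) at 1497 and 1613 FPKM and *mt-Rnr2* (16S) at 1486 and 1558 FPKM.

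The remaining 6 protein-coding genes had almost no counts, and they are neighbours. *mt-Co2*, another core subunit of cytochrome c oxidase, had 311 counts in the *Cdh5-CreERT2;CDK5 f/f* library and 300 in the *CDK5 f/f* library, which put *mt-Co1* 325-fold and 376-fold above it on the FPKM scale. *mt-Co3*, the third mitochondrial subunit of that enzyme, had 149 and 173 counts. *mt-Atp6* had 103 and 129 counts, and *mt-Atp8* had 3 and 1. The complex I subunit genes *mt-Nd3* and *mt-Nd4l* had 9 and 6 counts and 5 and 6 counts. Together these 6 genes had 193 counts per kilobase in the *Cdh5-CreERT2;CDK5 f/f* library and 205 in the *CDK5 f/f* library, against 61083 and 69984 for the other 7 mRNAs. The low block runs unbroken from *mt-Co2* (starting at 7013) to *mt-Nd4l* (ending at 10173), and both libraries show it with the same borders.

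**Figure D1:**
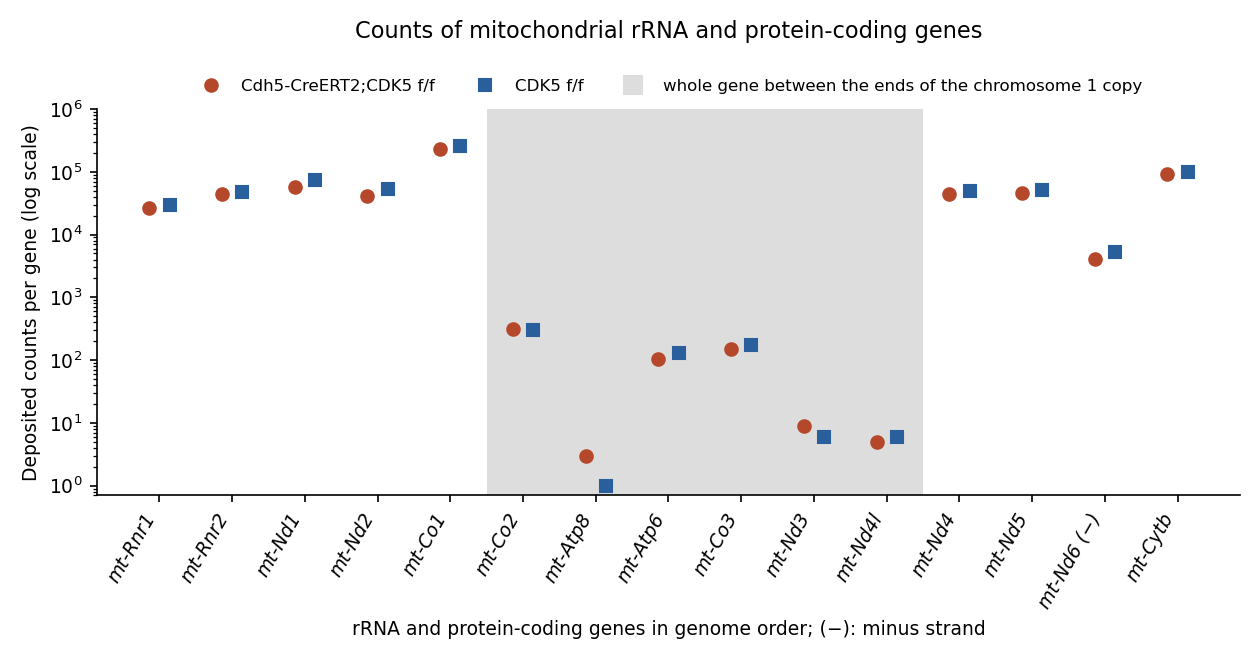
Deposited counts of the 2 rRNA and 13 protein-coding genes of the mitochondrial genome (log axis) in genome order, with 1 point per library and no error bars because each genotype has 1 library. In both libraries the 6 shaded genes, which lie between the ends of a nuclear copy on chromosome 1, have at most 311 counts, and the other genes have at least 4125.

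The block coincides with a nuclear copy of mitochondrial DNA. Such copies arise when mitochondrial DNA integrates into a chromosome, and a read that matches both places equally well has no single origin. On chromosome 1 of GRCm38, between 24611535 and 24616197, the table lists 7 pseudogene rows on the minus strand. Aligned with BLAST, they matched the mitochondrial genome in order from position 6390, inside *mt-Co1*, to position 11042, inside *mt-Nd4*. Over 4140 aligned bases there were 2 mismatches, and 5 of the 7 rows had none. *Gm28661* was identical to *mt-Co2* over 681 of its 684 bases, *Gm10925* to *mt-Atp6* over 678, *Gm28437* to *mt-Co3* over 783 and *Gm10222* to *mt-Nd4l* over 294. *mt-Atp8* lies in the gap between *Gm28661* and *Gm10925*, where no row of the table is annotated, and only its last 43 bases, shared with *mt-Atp6*, could be aligned. To show how close the match is, the first 60 bases of *mt-Co2* and of its copy are given with the first codon in capitals.
mt-Co2 (MT, 7013 to 7072, plus strand): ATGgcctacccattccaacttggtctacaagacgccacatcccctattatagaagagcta
Gm28661 (chromosome 1, 24615506 to 24615565, minus strand): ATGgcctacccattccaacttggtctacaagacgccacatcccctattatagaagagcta

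The copy rows themselves had few counts, 763 over all 7 in the *Cdh5-CreERT2;CDK5 f/f* library and 888 in the *CDK5 f/f* library. *Gm28661* had 151 and 153, *Gm10925* 177 and 234, *Gm28437* 114 and 147, *Gm10222* 11 and 17, and *Gm28439*, which matches the first 876 bases of *mt-Nd4*, 38 and 39. The copy rows thus had counts of the same order as the low block itself. The sources used here do not say how the authors treated reads that match several places, and the part of shared reads in the low block was not tested.

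Outside the low block, mitochondrial genes with a less similar nuclear copy had high counts. *Gm13340* on chromosome 2 matches all 1545 bases of *mt-Co1* at 97.6% identity, with 37 mismatches, and had 8 counts in each library while *mt-Co1* headed the table. *Gm13339*, also on chromosome 2, matches 510 bases of *mt-Nd2* at 96.7% and had 2 counts in the *Cdh5-CreERT2;CDK5 f/f* library and 1 in the *CDK5 f/f* library. *Gm4076* on chromosome 13 matches 954 bases of *mt-Nd5* at 95.2% and had 0 counts in both libraries.

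The borders of the copy cut through *mt-Co1* and *mt-Nd4*, of which 483 and 876 bases lie inside it. Dividing their counts by the bases outside the copy alone, an alternative chosen after the counts had been seen, gave 4746 FPKM for *mt-Nd4* in the *Cdh5-CreERT2;CDK5 f/f* library and 5094 in the *CDK5 f/f* library. This placed *mt-Nd4* at rank 2 among the mRNAs instead of rank 5 in both libraries. *mt-Co1* stayed first, with 11365 and 12330 FPKM. Levels of these 2 genes relative to the others therefore depend on the length they are divided by.

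Among the copy rows, *Gm28438* stood apart. It matches *mt-Nd3* over 345 bases with a single difference, and it had 223 counts in the *Cdh5-CreERT2;CDK5 f/f* library and 240 in the *CDK5 f/f* library, far more than the 9 and 6 of *mt-Nd3* itself. Per kilobase this is 646 and 696 counts, whereas the other 6 copy rows had 37.4 to 261 in the *Cdh5-CreERT2;CDK5 f/f* library and 44.5 to 345 in the *CDK5 f/f* library. The difference is T3C, counted from the first base of *mt-Nd3*, with the base of the mitochondrial gene first, and it falls at position 9461 of the mitochondrial reference. The bases around it are shown with the differing base in capitals. Which base these mice carry at that position was not analysed here.
mt-Nd3 (MT, 9459 to 9491, plus strand): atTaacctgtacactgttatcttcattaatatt
Gm28438 (chromosome 1, 24613087 to 24613119, minus strand): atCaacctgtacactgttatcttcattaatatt
The other mismatch, A1066T between *mt-Co1* and *Gm29216* (position 1066 counted from the first base of *mt-Co1*), lies near the end of the aligned stretch, and *Gm29216* had 49 and 58 counts.

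**Figure D2:**
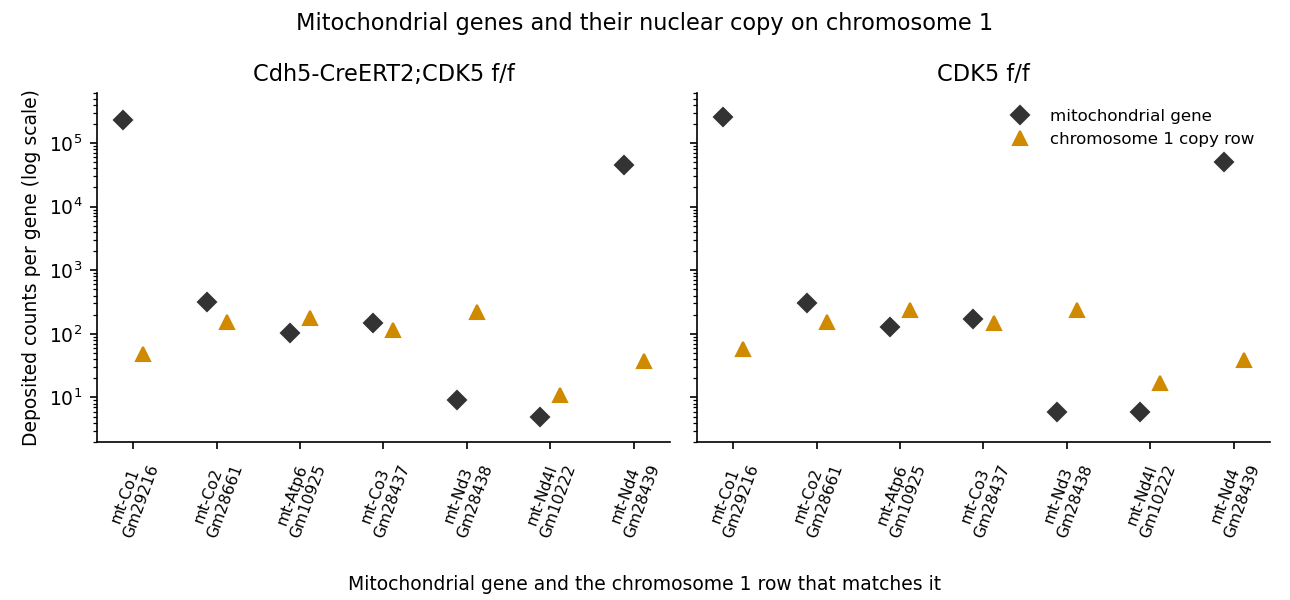
Deposited counts (log axis) of 7 mitochondrial genes and of the chromosome 1 rows that match them, in the *Cdh5-CreERT2;CDK5 f/f* library (left) and the *CDK5 f/f* library (right), with 1 value per library. Genes that lie partly outside the copy (*mt-Co1*, *mt-Nd4*) keep high counts, and *mt-Nd3* is the gene whose copy row, *Gm28438*, exceeds it most (223 against 9 and 240 against 6).

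The tRNA genes were at 0 in both libraries for 21 of 22. They are 59 to 75 bases long, while the labels give an insert size of about 300 bases, and for the 20 of them with a row on either side the nearest annotated genes lie at most 32 bases away. A count of 0 allows up to 3 counts, or 0.159 CPM in the *Cdh5-CreERT2;CDK5 f/f* library and 0.154 in the *CDK5 f/f* library. These tRNAs were not detected above that floor as separate rows. The exception was *mt-Tp*, the proline tRNA gene on the minus strand, with 633 counts in the *Cdh5-CreERT2;CDK5 f/f* library and 602 in the *CDK5 f/f* library (500 and 462 FPKM). *mt-Tp* is the last row of the genome, ending at 15422 with no annotated row after it, where the control region that holds the transcription start sites lies. Its neighbour *mt-Tt*, the threonine tRNA gene on the plus strand, adjoins it directly and had 0 counts. Both are 67 bases long, and their sequences are shown as the tRNA with counts and the adjoining one without.
mt-Tp (MT, 15356 to 15422, minus strand): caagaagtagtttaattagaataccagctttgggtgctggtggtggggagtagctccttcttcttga
mt-Tt (MT, 15289 to 15355, plus strand): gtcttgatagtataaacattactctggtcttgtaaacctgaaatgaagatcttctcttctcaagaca

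The labels describe poly(A) isolation or rRNA removal without saying which was used. Of 17 nuclear RNAs listed as lacking a poly(A) tail, 10 were at 0 in the *Cdh5-CreERT2;CDK5 f/f* library and 12 in the *CDK5 f/f* library, among them *Rmrp*, the RNA of an RNase that also acts in mitochondria. *Rn7sk*, a regulator of transcription elongation, had 13 and 6 counts. The histone genes *Hist1h2bc* (666 and 629 counts) and *Hist1h1c* (321 and 313 counts) had the most counts of that list. Most of the list was low or at 0 in both libraries, and its part in the tRNA values was not tested.

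Between genotypes, the mitochondrial transcripts with many counts were lower in the *Cdh5-CreERT2;CDK5 f/f* library, by a small amount and not to the same degree. The ratio of *Cdh5-CreERT2;CDK5 f/f* over *CDK5 f/f*, in counts per library total, was 0.904 for all mitochondrial rows together (interval 0.901 to 0.907). It was 0.898 for the protein-coding genes (0.895 to 0.902) and 0.944 for the rRNA genes (0.935 to 0.954). In tissue RNA, fewer cells or mitochondria and less RNA in each cannot be told apart. On the scale of log2(FPKM + 1), 0 of the 15 mitochondrial genes tested (those that reach an FPKM of 1 in either library) were past 1.5-fold, where 6.81% of all 14778 genes tested were. The median log2 ratio of the 12 mRNAs tested was -0.12, against 0.00 for all genes tested. The highest value among them, 0.33, was that of *mt-Nd3* and rests on 9 and 6 counts.

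The smallest ratios were those of 3 complex I subunit genes. *mt-Nd1* (MT, 2751 to 3707) had 57260 counts in the *Cdh5-CreERT2;CDK5 f/f* library and 74650 in the *CDK5 f/f* library (ratio 0.789, interval 0.781 to 0.798), and *mt-Nd2* (3914 to 4951) had 41955 and 52826 (0.817, 0.807 to 0.828). *mt-Nd6* (13552 to 14070), the minus-strand mRNA, had 4125 and 5237 counts (0.811, 0.778 to 0.845). The other 2 complex I genes with many counts lay higher, at 0.932 for *mt-Nd4* (45034 and 49739 counts, 0.920 to 0.944) and 0.912 for *mt-Nd5* (45796 and 51659 counts, 0.901 to 0.924). The counting intervals of *mt-Nd1*, *mt-Nd2* and *mt-Nd6* thus did not overlap those of *mt-Nd4* and *mt-Nd5*. At such counts these intervals are narrow, and they leave out any spread between mice. How often nuclear genes of equal depth differ as much was not computed.

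Outside complex I, the genes with many counts had ratios closer to 1 than those 3. *mt-Co1* had a ratio of 0.922 (interval 0.917 to 0.927) and *mt-Cytb* of 0.943 (0.935 to 0.952). The rRNAs, which lie just before *mt-Nd1* on the same strand, had ratios of 0.928 for *mt-Rnr1* (27025 and 29962 counts, 0.913 to 0.944) and 0.954 for *mt-Rnr2* (44441 and 47935 counts, 0.942 to 0.967). The counting intervals of the neighbours *mt-Rnr2* and *mt-Nd1*, with only the tRNA gene *mt-Tl1* between them, did not overlap either. At this depth the intervals are narrow, and how often 2 genes of equal depth fail to overlap was not computed. On the FPKM scale *mt-Nd1* was 2.13 times *mt-Rnr2* in the *Cdh5-CreERT2;CDK5 f/f* library and 2.57 times in the *CDK5 f/f* library.

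For *mt-Tp* the ratio was 1.08, with an interval that includes 1 (0.966 to 1.21). The same was true of the 6 genes of the low block, whose summed counts of 580 and 615 gave 0.971 (0.865 to 1.09). Of the 16 mitochondrial rows with any count, the interval lay below 1 for 9, above 1 for 0 and included 1 for 7, while it lay below 1 for 17.9% and above 1 for 19.7% of the genes tested. Because intervals narrow with depth, a floor of 1000 summed counts was also set. Of the 10 mitochondrial rows that reach it, 9 had intervals below 1, with *mt-Tp* as the exception. Among the 7284 genes tested that reach it, 21.8% lay below and 22.4% above. Of these deeper genes, 0.659% were past 1.5-fold higher and 0.343% past it lower, and 0 of the 10 mitochondrial rows were either. The floor does not match depth, so the part of depth in the 9 of 10 was not tested. Those 9 rows run from *mt-Nd6* (4125 and 5237 counts) to *mt-Co1* (228127 and 254719), whereas *mt-Tp* (633 and 602) lies near the floor. Since each strand is transcribed as long precursors, the rows are not separate observations either. The single value per genotype cannot say whether mice of 1 genotype differ as much among themselves.

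**Figure D3:**
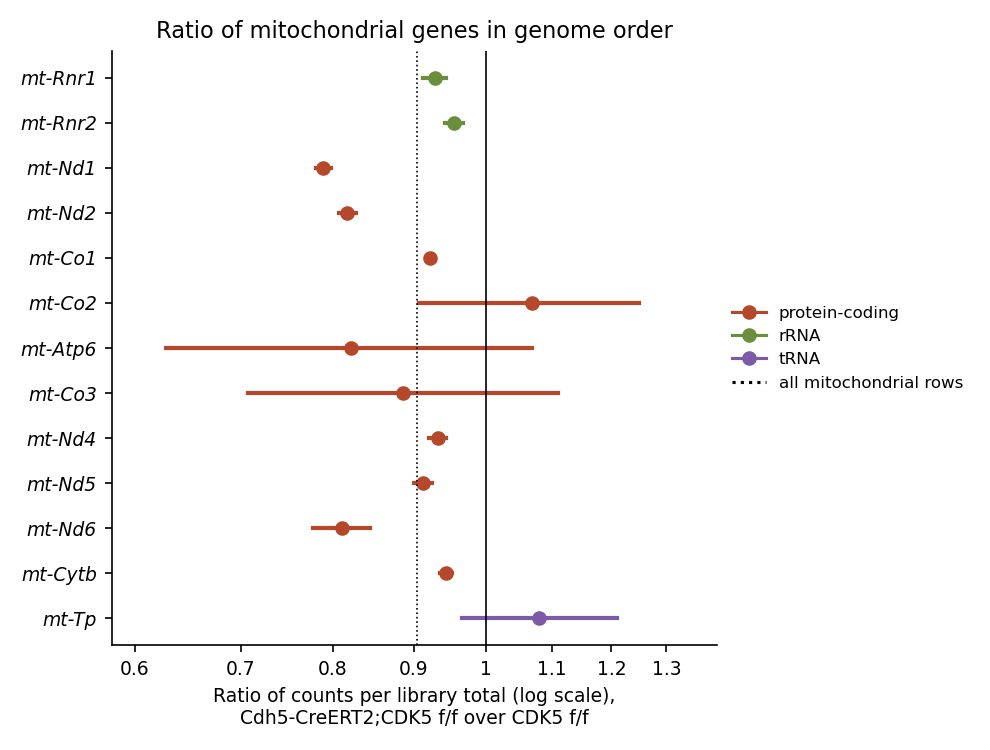
Ratio of counts per library total (log axis), *Cdh5-CreERT2;CDK5 f/f* over *CDK5 f/f*, in genome order for the 13 mitochondrial genes whose counts in both libraries sum to 100 or more. Points are ratios, bars are exact 95% counting intervals, the solid line marks 1 and the dotted line marks 0.904, the ratio of all mitochondrial rows. *mt-Nd1*, *mt-Nd2* and *mt-Nd6* lie left of the dotted line with their whole intervals.

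Set against the mitochondrial total instead of the library total, ratios lay on both sides of 1. Shares of a common total must do so unless they all stay equal, so this is not a separate result. *mt-Nd1* took 9.77% of mitochondrial counts in the *Cdh5-CreERT2;CDK5 f/f* library and 11.2% in the *CDK5 f/f* library (ratio of shares 0.873, interval 0.864 to 0.883). *mt-Nd2* had 0.904 (0.893 to 0.916) and *mt-Nd6* 0.897 (0.861 to 0.934). The shares of *mt-Co1* (38.9% and 38.2%), *mt-Cytb* (15.5% and 14.9%) and *mt-Rnr2* (7.58% and 7.18%) were higher, with ratios of 1.02, 1.04 and 1.06. *mt-Tp* had 1.2 (1.07 to 1.34). Against the library total, *mt-Co1*, *mt-Cytb* and *mt-Rnr2* lay below 1, at 0.922, 0.943 and 0.954. By strand, minus-strand genes had a ratio of 0.928 within the mitochondrial total (0.893 to 0.964), which combines the lower *mt-Nd6* with the higher *mt-Tp*.

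The nuclear genes for subunits of the same complexes summed to ratios of 1.01 to 1.08, and those of the mitochondrial subunit genes lay below 1 in each complex, for complex V with an interval that includes 1. Mitochondrially encoded subunits of complex I summed to a ratio of 0.854 (interval 0.848 to 0.859), whereas the 37 nuclear complex I subunit genes listed summed to 1.01 (0.998 to 1.03). That nuclear sum includes *Ndufs5*, with 39 counts in the *Cdh5-CreERT2;CDK5 f/f* library and 797 in the *CDK5 f/f* library. It leaves out the near-identical copy *BC002163*, which had 771 and 8, so the nuclear value is lowered by this gene. For complex III the values were 0.943 for *mt-Cytb* and 1.05 for the nuclear subunits, and for complex IV 0.922 and 1.08. The mitochondrial value of complex IV is almost that of *mt-Co1* alone (228127 of 228587 counts in the *Cdh5-CreERT2;CDK5 f/f* library), since *mt-Co2* and *mt-Co3* lie in the low block. In complex I, *mt-Nd3* and *mt-Nd4l* of that block likewise add very few counts. For complex V the 2 mitochondrial genes, both in the low block, gave 0.839 (0.643 to 1.09) and the nuclear subunits 1.08. Complex II, which has no mitochondrial gene, had 1.1. Whether the mitochondrial and nuclear ratios differ beyond the spread between mice could not be tested with 1 library per genotype.

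Of 81 nuclear subunit genes tested, 4 were past 1.5-fold higher and 1 was past it lower, beside 3.65% and 3.16% of all genes tested, and the median log2 ratio was 0.09. The interval lay above 1 for 25 of them, below 1 for 7 and included 1 for 49. Among all genes tested, 19.7% lay above and 17.9% below, without matching for depth. *Cox7a2*, a complex IV subunit, had 824 counts in the *Cdh5-CreERT2;CDK5 f/f* library and 418 in the *CDK5 f/f* library. The other 3 higher genes, *Cox6b2*, *Cox7b2* and *Cox8b*, had at most 51 counts in a library. The lower gene, *Ndufs5* of complex I, had 39 and 797 counts, and its near-identical copy *BC002163* (99.4% over 319 bases) had 771 and 8, so that both together had a ratio of 1.04 (0.938 to 1.14). *Cox7a2l*, a complex IV related factor of respiratory supercomplexes, had a log2 ratio of 0.53, and *Uqcr10* of complex III had 0.45. Within complex I the genes farthest from 1 after *Ndufs5* went both ways, with ratios of 0.762 for *Ndufa3* (interval 0.654 to 0.887), 0.797 for *Ndufc2* (0.713 to 0.889) and 1.29 for *Ndufa9* (1.2 to 1.39). All 4 complex II genes had intervals above 1, beside 19.7% of all genes tested, with ratios up to 1.2 for *Sdhd* (1.11 to 1.3). In complex V, *Atp5g2*, a gene for the membrane ring of the ATP synthase, had 60 and 100 counts (0.617, 0.441 to 0.859), while *Atp5g1*, which encodes the same mature protein, had 986 and 827 (1.23, 1.12 to 1.35).

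The nuclear genes that copy mitochondrial DNA and handle its RNA were close to 1 in most lists. Of 61 genes in 6 lists, 57 were tested, 0 were past 1.5-fold (6.81% of all genes tested were) and the median log2 ratio was 0.01. Summed counts gave 1.11 (1.06 to 1.16) for the modifiers of mitochondrial tRNA and 0.966 to 1.04 for the other lists. Over the 57 genes the interval lay above 1 for 7, below 1 for 6 and included 1 for 44, beside 19.7% above and 17.9% below among all genes tested. In the transcription list, *Polrmt*, the mitochondrial RNA polymerase, had 795 counts in the *Cdh5-CreERT2;CDK5 f/f* library and 839 in the *CDK5 f/f* library (ratio 0.975, 0.884 to 1.08), and *Tfam*, which packs the genome and starts transcription, had 571 and 593 (0.991, 0.882 to 1.11). Neither differed detectably at this depth. Farther from 1 were *Mterf4*, a factor of mitochondrial ribosome assembly (256 and 179 counts, 1.47, 1.21 to 1.79), and *Mterf3*, a related DNA-binding protein (320 and 408 counts, 0.807, 0.695 to 0.937). *Tefm*, the elongation factor, had 1.19 (0.897 to 1.57) and *Tfb2m*, an initiation factor, 0.874 (0.73 to 1.05). Of the replication list, *Top1mt*, the mitochondrial topoisomerase, had a ratio of 0.851 (0.742 to 0.976), and *Polg2*, the accessory subunit of the DNA polymerase, had 0.756 on few counts (61 and 83, 0.534 to 1.07).

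Genes that cut and stabilise the transcripts varied in both directions. *Elac2*, which cuts tRNAs at their 3′ end, had 723 counts in the *Cdh5-CreERT2;CDK5 f/f* library and 853 in the *CDK5 f/f* library (0.872, 0.789 to 0.964). *Hsd17b10*, a subunit of the enzyme that cuts the 5′ end, had 424 and 367 (1.19, 1.03 to 1.37), and its partner *Trmt10c* had 1.2 (0.982 to 1.47). *Ptcd2*, of a family of mitochondrial RNA-binding proteins, had 589 and 511 (1.19, 1.05 to 1.34). *Mtpap*, the poly(A) polymerase of mitochondria, had 347 and 419 (0.852, 0.737 to 0.985), and *Lrpprc*, which stabilises most of the mRNAs, had 1450 and 1458 (1.02, 0.951 to 1.1). *Slirp*, the partner of *Lrpprc*, had 0.848 (0.68 to 1.05), and *Rexo2*, which degrades short RNA pieces, had 0.883 (0.805 to 0.968). Of the modifiers of mitochondrial tRNA, *Qtrt1* (456 and 341 counts, 1.38, 1.19 to 1.59) and *Mto1* (429 and 342 counts, 1.29, 1.12 to 1.49) had intervals above 1, as did *Mettl8* (303 and 249 counts, 1.25, 1.06 to 1.49). *Cdk5rap1*, a tRNA modifying enzyme first named as a partner of the Cdk5 activator, had 205 and 178 counts (1.19, 0.965 to 1.46). Among modifiers of mitochondrial rRNA and ribosome assembly factors, *Eral1* had 1.24 (1.06 to 1.45).

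Regulators of mitochondrial biogenesis and proteins that mark mitochondrial mass had 0 genes past 1.5-fold, where 6.81% of all genes tested were. Intervals lay above 1 for 0 and below 1 for 0 of the 7 biogenesis genes, beside 19.7% and 17.9% of all genes tested. *Ppargc1a*, the coactivator PGC-1α, had 847 counts in the *Cdh5-CreERT2;CDK5 f/f* library and 884 in the *CDK5 f/f* library. *Ppargc1b*, its relative, was farthest from 1 in that list, at 1.21 (0.99 to 1.49). The 10 genes of outer membrane channels, import and matrix enzymes summed to a ratio of 1.03 (1.02 to 1.05), and *Hspd1*, a matrix chaperone, had a log2 ratio of 0.11. The mitochondrial mRNAs lay below both lists, whose medians were 0.03 and 0.02 on the log2 scale.

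**Figure D4:**
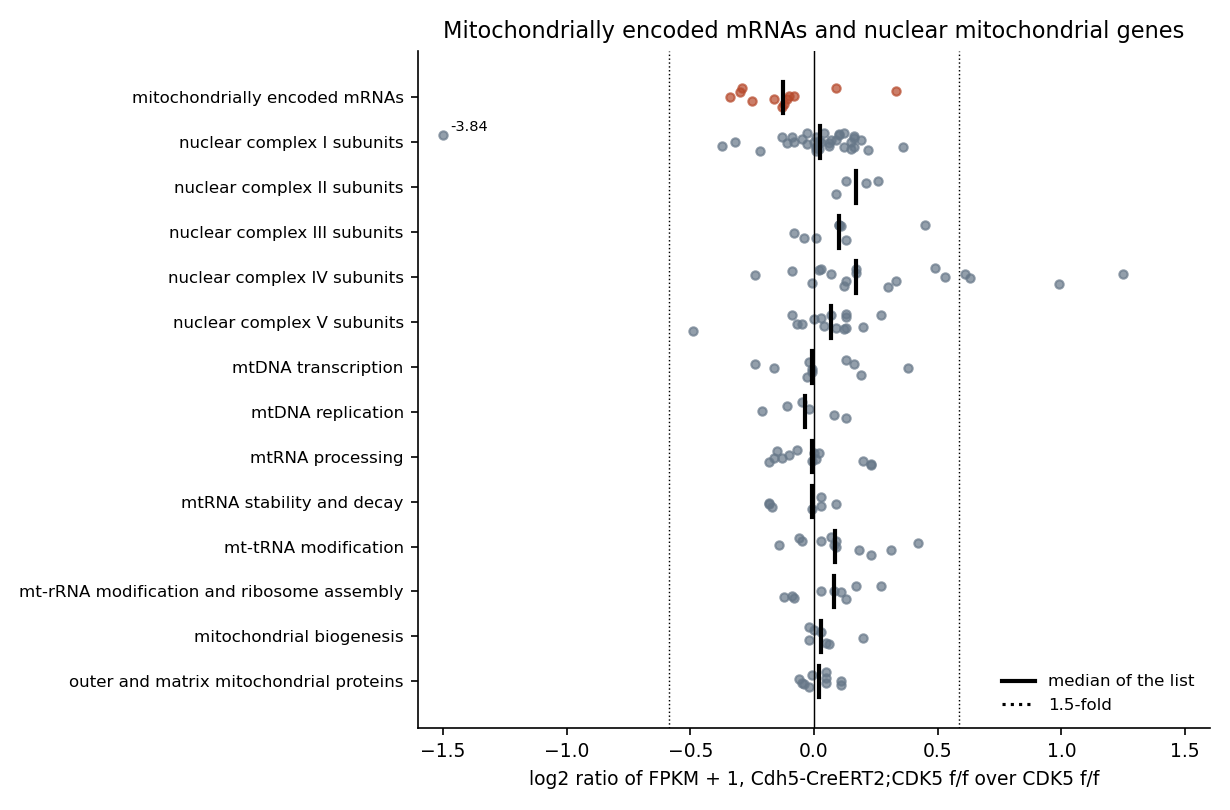
Log2 ratio of FPKM + 1, *Cdh5-CreERT2;CDK5 f/f* over *CDK5 f/f*, for the 12 mitochondrially encoded mRNAs tested (top) and for 13 lists of nuclear mitochondrial genes, with 1 point per gene, a bar at each median and dotted lines at 1.5-fold. The mitochondrial median is -0.12, the nuclear complex medians lie above 0, and *Ndufs5* is drawn at the left edge with its value of -3.84.

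Markers of some cell types also differed between the libraries. All 13 choroid plexus markers were past 1.5-fold higher in the *Cdh5-CreERT2;CDK5 f/f* library, beside 3.65% of all genes tested, each with counts in both libraries. The 5 astrocyte markers summed to 1228 CPM in the *Cdh5-CreERT2;CDK5 f/f* library and 1383 in the *CDK5 f/f* library, the 6 endothelial markers to 157 and 175, and the 6 oligodendrocyte markers to 5115 and 5173. In the same order, the 6 interneuron markers summed to 800 and 766 CPM, the 6 CA1 markers to 661 and 641 and the 6 microglia markers to 223 and 219. The 5 CA3 markers had 251 and 258, and the 6 dentate granule cell markers 354 and 354. Among the endothelial markers, *Cldn5* and *Slco1a4* had the lowest ratios (0.708 and 0.714), with *Tek* at 0.871, *Pecam1* at 0.994, *Cdh5* at 1.01 and *Flt1* at 1.05. The 6 pituitary markers summed to 2.59 CPM in the *Cdh5-CreERT2;CDK5 f/f* library and 18.5 in the *CDK5 f/f* library (49 and 360 counts, ratio 0.14, interval 0.102 to 0.189). Of these hormone genes, *Prl* had 0 and 236 counts, *Gh* 0 and 70 and *Cga* 0 and 9, *Lhb* was at 0 in both libraries, and *Pomc* (18 and 13) and *Tshb* (31 and 32) had counts in both. The part of these cell types in the mitochondrial ratios was not tested. Leaving the 13 choroid plexus genes and the mitochondrial rows out of the library total gave a ratio of 0.901 for the protein-coding mitochondrial genes, beside 0.898 with them. This changes the total only. Mitochondrial RNA from choroid plexus cells stays in the counts, so the comparison cannot show the part of these cells.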

How the data were processed

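Hippocampal RNA of 1 *Cdh5-CreERT2;CDK5 f/f* and 1 *CDK5 f/f* sample was sequenced. The authors deposited raw counts per gene, FPKM values and the exonic length of each gene. According to the submitters' processing notes, HISAT2 2.0.1 and HTSeq 0.6.1 were used after cutadapt 1.9.1, with DESeq2 also listed. The notes give the build mm9, although all 37 mitochondrial rows have GRCm38 coordinates. The counting mode, the use of strand and the treatment of reads with several matches are not given in the sources used here. The deposited FPKM were recomputed from counts, lengths and totals in all 55573 rows.

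Members were all rows on chromosome MT. Ratios are of counts per library total, with exact (Clopper-Pearson) conditional 95% intervals, which cover counting error only. Genes that reach an FPKM of 1 in either library were held against 1.5-fold on log2(FPKM + 1), which understates changes of low genes. No p-value was computed. Transcripts of GENCODE M21 were aligned with BLAST 2.17.0. Alternatives used TMM (edgeR 4.0.16), median of ratios (DESeq2 1.42.0), other totals, pseudocounts and filters. Calculations used Python 3.11.15, scipy 1.17.1 and R 4.3.3 and were tested on simulated data. The text names all mitochondrial mRNAs and rRNAs, tRNAs with at least 10 counts in a library, nuclear copies likewise, and from each list of nuclear mitochondrial genes those past 1.5-fold and up to 4 with the largest absolute log2 ratio, given 100 counts over both libraries. *Polrmt*, *Tfam*, *Lrpprc*, *Ppargc1a*, *Cox6b2*, *Cox7b2*, *Cox8b*, *Rmrp*, *Rn7sk*, *mt-Tt*, *Gm13340*, *Gm13339* and *Gm4076* fall outside this rule and were chosen after their values were seen. Members and gene lists were chosen with earlier results of these data known.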

Additional observations from a re-analysis of the deposited data

How the results depend on the processing

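Across 48 alternatives for 12 results, 37 left the value within its interval or equal, 11 moved it and 0 reversed it. Median-of-ratios scaling (DESeq2) gave a protein-coding ratio of 0.891 and a median log2 ratio of -0.14. That median was -0.13 with mitochondrial rows left out of the total, -0.15 with a pseudocount of 0.1 and -0.15 with an FPKM of at least 5. The mitochondrial share of the *Cdh5-CreERT2;CDK5 f/f* library was 3.12% with the choroid plexus list left out of the total. Without mitochondrial rRNA and tRNA rows the shares were 2.73% (*Cdh5-CreERT2;CDK5 f/f*) and 3.04% (*CDK5 f/f*). Of the alternatives chosen after seeing the data, the 7 mRNAs with at least 1000 counts had a median of -0.13, and *mt-Nd4* ranked 2 instead of 5 in both libraries per base outside the chromosome 1 copy. The counts of genes past 1.5-fold (0), with intervals below 1 (9) and above 1 (0) were the same in each alternative run for them. No paired analysis was possible because each genotype has 1 library, and no library could be left out. Counts were low for the 6 genes of the low block and 0 for 21 tRNA genes, so differences between genotypes were not detectable for them. Why these counts were low was not tested.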
